A study of Sus scrofa with 9 samples.

Results

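The comparison set the spleens of 210-day-old Ningxiang pigs against those of 30-day-old piglets, over every locus of the gene table with a mean of at least 1 FPKM (fragments scaled to transcript length and to the size of the library, a level per length) over the 9 libraries of the series. That rule kept 19264 of 28095 loci. The circular RNA (circRNA) table of the same libraries was compared in the same way for the 2748 of 18908 circRNAs with junction reads in at least 4 of the 9 libraries. Ningxiang is an indigenous Chinese breed, and whole spleen was sampled on postnatal days 30, 90 and 210, with 3 libraries for each age and no treatment, transgene or other variable named. The day 90 libraries entered the fit, where they added to the estimate of the spread, and their values are given beside a result where they help to place it in time. The labels number the libraries 1 to 3 within an age but do not say that each came from another animal, and they give no sex or litter, so p-values measure the spread between these libraries only.

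The spleen filters blood and houses lymphocytes. Its red pulp is a mesh of sinusoids, collagen-bearing cords and macrophages that remove old red cells, and its white pulp holds T and B cells around small arteries. In young mammals the organ still grows, builds its vessels and matrix and can make blood cells, whereas later it is foremost a filter and an immune organ in which B cells mature into antibody-secreting plasma cells. Whole tissue was sequenced, so fewer cells of a type and less RNA per cell cannot be told apart in any result below.

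Reads counted in loci came to between 57361909 and 61337804 per library at day 30 and between 48930557 and 62119158 at day 210, which puts most of the error on the spread between libraries (a biological coefficient of variation of 27.3%) rather than on counting. Genes that define cell types were checked first. The spleen genes NKX2-5 and NR5A1 (mesenchyme), CD163, SLC40A1 and VCAM1 (red pulp macrophages) and CD79B and MS4A1 (B cells) were present at both ages, while ADIPOQ, PLIN1, CPA1 and CKM, of fat, pancreas and muscle, summed within a tissue to no more than 0.457 FPKM in any library of these ages. The 3 erythroid markers (SLC4A1, ANK1 and RHAG) all fell, from a summed 74.7, 19.1 and 38.4 FPKM in day 30 replicates 1, 2 and 3 to between 0.673 and 1.36 at day 210. The 2 platelet markers (ITGA2B and GP1BA) fell from 10.2 to 13.6 FPKM at day 30 to 1.33 to 1.8, the 2 mesenchyme markers from 17.8 to 18.2 to between 6.99 and 11.3, and the endothelial marker CLEC14A from 12 to 13.2 to between 4.52 and 6.58. Among leukocyte markers CD3D of T cells rose from 10.7 to 12.7 FPKM to between 17.3 and 20.9, and 1 of 3 macrophage markers rose (CD163), whereas neither B cell marker and neither neutrophil marker passed the test. These marker values run beside the family results below, and their part in those results was not tested except where a value is given.

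Of the 19264 loci, 1203 passed an adjusted p of 0.05 in edgeR's quasi-likelihood test, which is 6.24% of those tested. A total of 491 loci (2.55%) were higher and 712 (3.7%) lower at day 210. In 1187 of the 1203 the 3 libraries of one age all lay on one side of the 3 of the other. Over all 19264 tested loci, called or not, the same held for 1631 loci higher and 3091 loci lower at day 210. A small p selects for such a gap, so the 1187 give the calls no further support. Unadjusted p was under 0.05 for 4570 loci. Calls depended on single libraries: the count fell to 342 when day 30 replicate 2 was left out, to 392 when it was day 210 replicate 2 and to 419 when it was day 30 replicate 1, whereas leaving out day 90 replicate 2 gave 799, and 253 of the 1203 passed whichever library was left out. For the loci named below, each paragraph therefore says how many calls held with any 1 library left out. Where calls were lost without one or another of the 9 libraries, each library cost at least 1 of them. Differences are fitted log2 values, day 210 minus day 30, ± the standard error.

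The direction of change differed between loci with a protein name and loci without one. Of 9946 tested loci with a single informative description, 155 rose (1.56%) and 508 fell (5.11%), together 6.67%, with a median log2 difference of -0.085. Of 8663 tested loci without any description, 323 rose (3.73%) and 178 fell (2.05%), together 5.78%, with a median of 0.13. Smaller kinds were counted apart: of 382 loci that carry several names 7 rose (1.83%) and 15 fell (3.93%), and of 273 with an uninformative name 6 rose (2.2%) and 11 fell (4.03%), or 5.76% and 6.23% in either direction. The higher calls thus made up 23.4% of the calls among named loci and 64.5% among undescribed ones; over all loci the share was 40.8%. With limma on log2(FPKM + 1) these shares were 13.3%, 45.1% and 22.9%, and without day 30 replicate 3 the share among named loci was 15.6%. Undescribed loci took 36.2%, 36.1% and 36.2% of all counts at day 30 and 37.7%, 39.3% and 40.4% at day 210, so every day 210 library lay above every day 30 library. They were also lower in level, with a median mean of 1.9 FPKM over the tested loci against 4.46 FPKM for named ones, and among loci with a mean of 5 FPKM or more the higher calls made up 38.4% of those among named and 66.7% of those among undescribed loci.

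**Figure D1:**
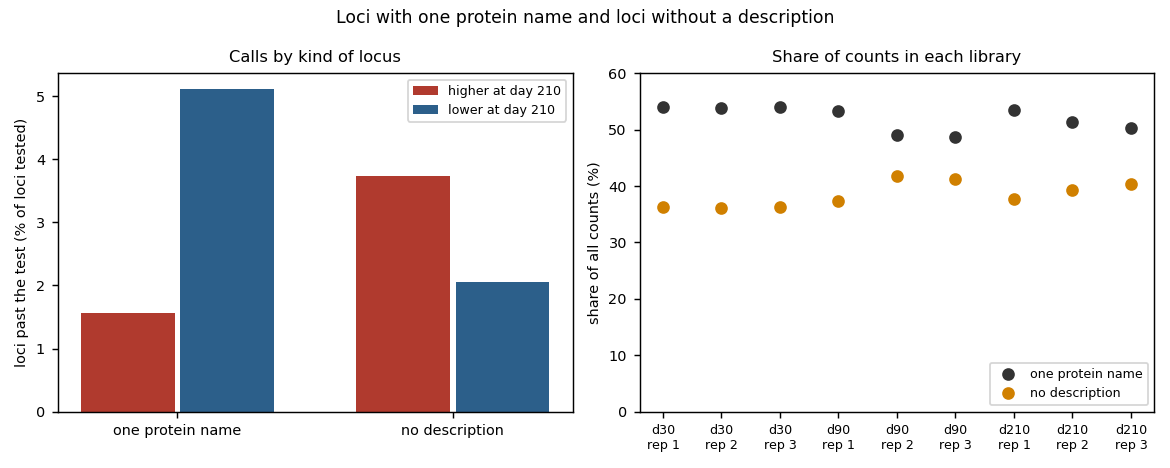
The left panel gives the percent of tested loci that were higher and lower at day 210 (adjusted p under 0.05) for named and for undescribed loci, and the right panel gives the percent of all counts that each kind took in each of the 9 libraries. Named loci fell more often than they rose (5.11% against 1.56%), undescribed loci rose more often than they fell (3.73% against 2.05%), and the day 210 libraries had a larger undescribed share of counts than the day 30 libraries (37.7% to 40.4% against 36.1% to 36.2%).

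Protein families were formed by matching the descriptions in the table, 67 families that together held 3403 tested loci. In them 188 loci fell and 69 rose; 47 families had more falling than rising members, 13 the reverse, and 54 of the 67 medians lay below 0. Counts in each family are to be read against the 5.11% of named loci that fell and the 1.56% that rose. A member could enter only by reaching a mean of 1 FPKM over the 9 libraries, which a locus high at a single age also does, so the counts describe the members and give no test of a family. None of the 24 family medians of at least 0.2 in size changed sign under another scaling, another test or with a library left out; at a minimum of 5 FPKM, where fewer members are left, the medians of matrix proteases, homeobox proteins, cytochrome P450 and scavenger receptors did, and with the smaller medians 26 of 62 changed sign there.

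**Figure D2:**
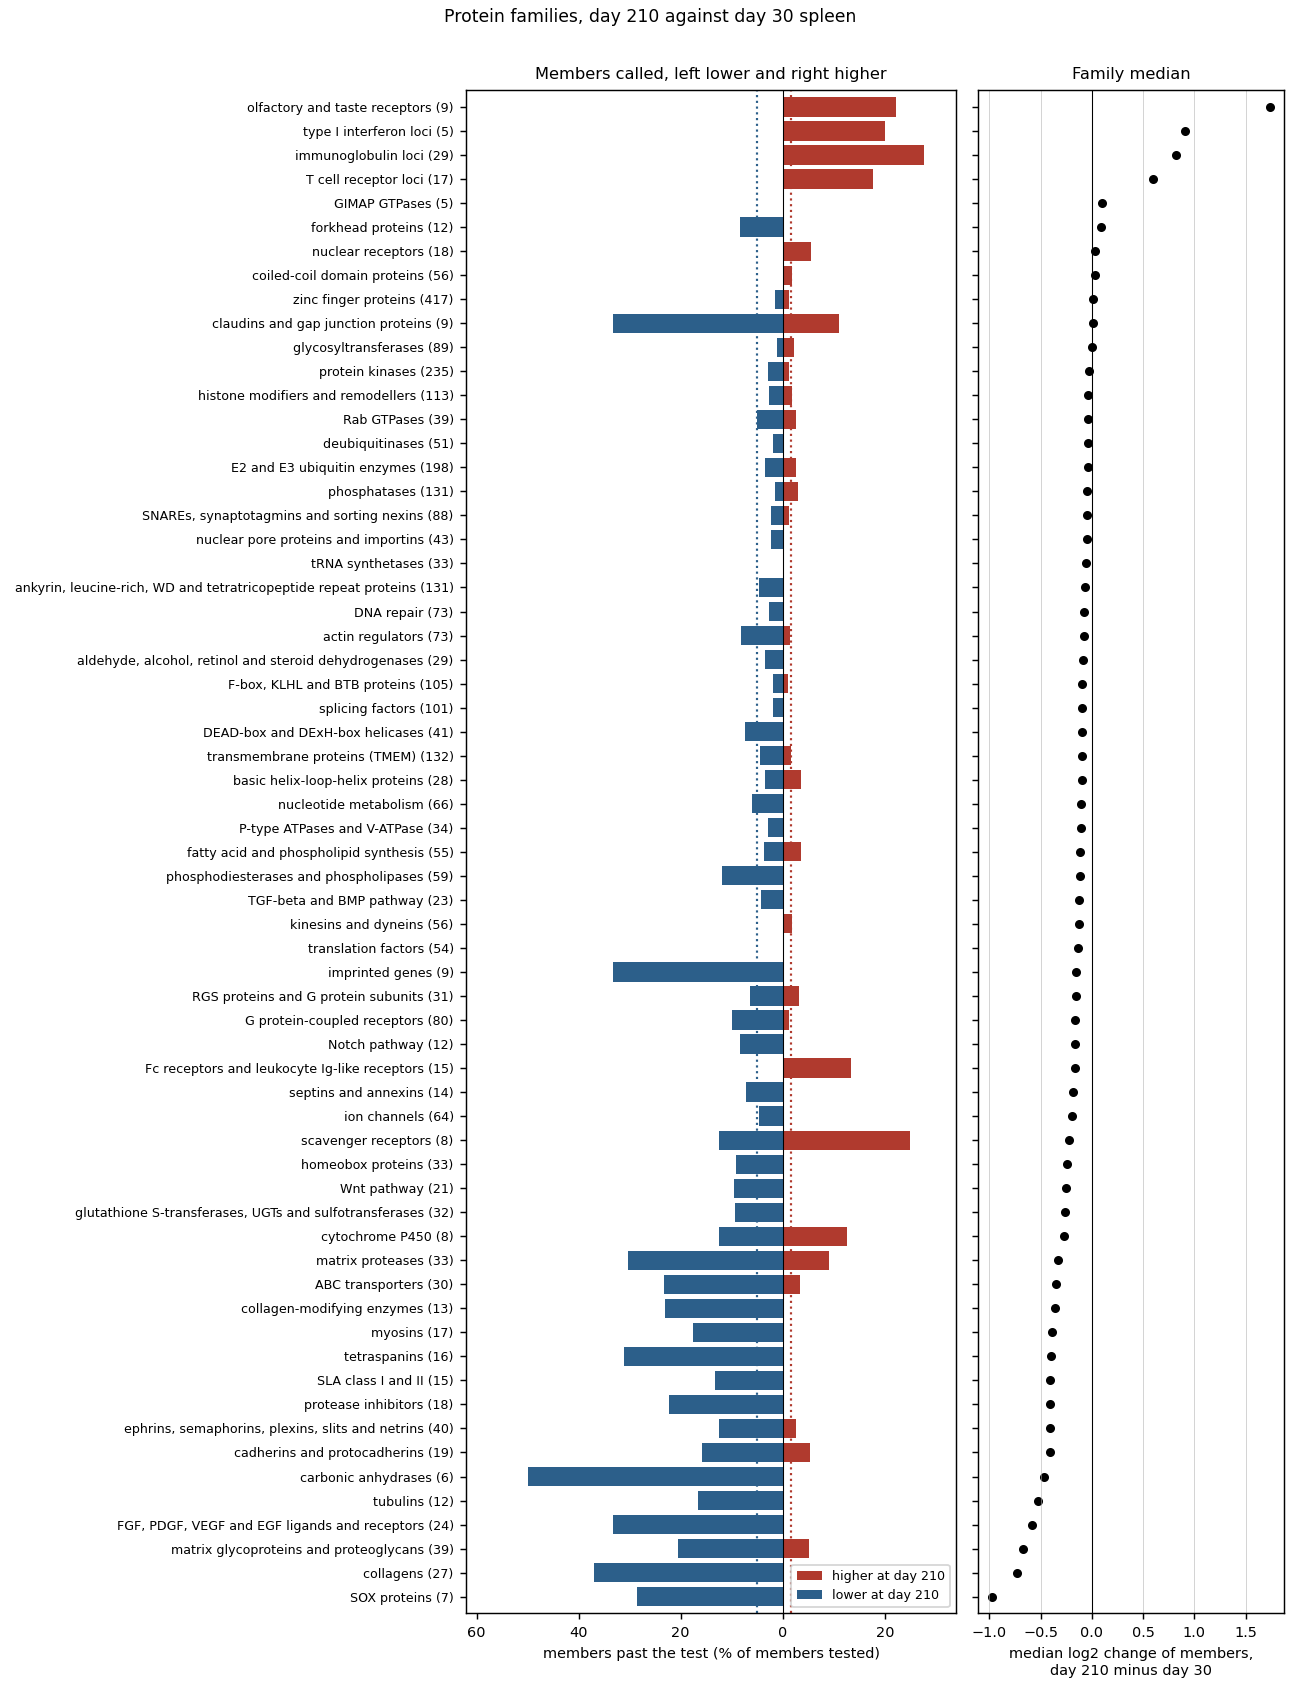
For each of 63 families with at least 5 tested members, the left panel gives the percent of members that fell (bars to the left, blue) and rose (bars to the right, red) from day 30 to day 210, with dotted lines at the shares of all named loci (5.11% and 1.56%), and the right panel gives the family median of the log2 difference. Collagens (10 of 27 fell), growth factor ligands and receptors (8 of 24 fell) and immunoglobulin loci (8 of 29 rose) lie far from the dotted lines.

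Collagens, the fibres and sheets that give the splenic cords and vessel walls their shape, were mostly lower at day 210. Of 61 collagen loci 27 were tested, 10 fell and 0 rose, and the median log2 difference was -0.73. Differences lay above 0 in 6 of the 27. The highest, 1.63, was that of a collagen alpha-1(III) chain-like locus, which did not pass. The collagen alpha-2(V) chain, which sets the width of collagen I fibres (chromosome 15, 95053463 to 95235545, minus strand), had 21.7, 26 and 26.2 FPKM at day 30 and 10.8, 8.69 and 7.6 at day 210. Every day 210 library was under the lowest day 30 library, and the chain fell by 1.41 ± 0.12 (adjusted p = 0.00177). Collagen alpha-1(XXVI) had 7.89, 9.64 and 10.5 FPKM at day 30 and 3.17, 2.45 and 2.62 at day 210 and fell by 1.72 ± 0.2 (adjusted p = 0.00415). The sheet-forming basement membrane chains lay among the most abundant: collagen alpha-1(IV) had 93.4, 102 and 77.7 FPKM at day 30 and 60.7, 40.4 and 46.2 at day 210. It fell by 0.86 ± 0.19 (adjusted p = 0.0332), its neighbour on the opposite strand, alpha-2(IV), fell by 0.88 ± 0.17 (adjusted p = 0.0203), and alpha-4(IV) fell by 0.85 ± 0.11 (adjusted p = 0.00622). The beaded-filament chains alpha-1(VI) and alpha-3(VI) fell by 0.93 ± 0.15 and 1.25 ± 0.22 (adjusted p = 0.0122 and 0.0173). Collagen alpha-1(I), the main fibre chain, had 55, 73.8 and 66.3 FPKM at day 30 and 27.9, 17.1 and 10.6 at day 210. All 3 day 210 libraries were low, though unequal among themselves, and the locus fell by 1.79 ± 0.4 (adjusted p = 0.0335); the same description stands on 3 loci, so its reads may be divided between them. The 2 other falling chains were alpha-1(XIV) and alpha-1(XV). 4 of these 10 named calls held with any 1 library left out; the others were lost without day 30 replicates 1, 2 and 3, day 90 replicate 2 or day 210 replicates 2 and 3, with adjusted p of up to 0.114 (without day 30 replicate 2). The median of the family was -0.8 for day 90 against day 30 and 0.06 for day 210 against day 90; these comparisons share libraries with the main one.

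Enzymes and chaperones that build collagen fibres moved in the same direction, 3 of 13 falling and 0 rising. Serpin H1, the collagen chaperone HSP47, had 54.3, 36.3 and 38.4 FPKM at day 30 and 19.1, 12.2 and 18.3 at day 210 and fell by 1.33 ± 0.21 (adjusted p = 0.0117). Lysyl oxidase homologs 2 and 4, which crosslink collagen, fell by 1.02 ± 0.18 (adjusted p = 0.0173) and by 1.07 ± 0.25 (adjusted p = 0.0389). Of the 3 calls named here, 1 held in all fits with a library left out, and the others were lost without day 30 replicates 1 and 2, day 90 replicates 1, 2 and 3 or day 210 replicates 1, 2 and 3 (adjusted p of up to 0.122, without day 30 replicate 2). Other matrix glycoproteins and proteoglycans counted 8 falling and 2 rising of 39 tested, with a median of -0.67. SPARC, a collagen-binding matricellular protein, had 130, 159 and 96.1 FPKM at day 30 and 68.5, 53.9 and 44.9 at day 210. Its groups did not overlap, and it fell by 1.18 ± 0.23 (adjusted p = 0.0216). Fibulin-2 fell by 1.14 ± 0.13 (adjusted p = 0.00399), fibrillin-1 of the elastic microfibrils fell by 0.95 ± 0.19 (adjusted p = 0.0257), and fibronectin, the adhesive glycoprotein of the provisional matrix, fell by 0.94 ± 0.23 (adjusted p = 0.0429) with 34.7, 41.5 and 30.1 FPKM at day 30 and 22.3, 12.5 and 19.3 at day 210. Against this direction, syndecan-1, the heparan sulfate proteoglycan of epithelia and plasma cells known as CD138, had 1.02, 0.979 and 1.03 FPKM at day 30 and 2.75, 2.34 and 3.02 at day 210. It rose by 1.47 ± 0.19 (adjusted p = 0.00581), and the chondroitin sulfate proteoglycan 4-like locus rose by 1.08 ± 0.15 (adjusted p = 0.00771). Leaving out single libraries spared 3 of the 6 named calls in every fit, the losses coming without day 30 replicates 1 and 2, day 90 replicates 1, 2 and 3 or day 210 replicates 1, 2 and 3 and reaching an adjusted p of 0.148 without day 30 replicate 2.

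Metalloproteinases and their relatives, many of which cut matrix and cell surface proteins, went both ways. Of 33 tested, 10 fell and 3 rose. ADAMTS2, the procollagen N-proteinase, is split over 2 neighbouring loci on chromosome 2. The first had 9.1, 9.51 and 8.35 FPKM at day 30 and 3.2, 2.98 and 2.71 at day 210 and fell by 1.56 ± 0.12 (adjusted p = 0.00116); the second fell by 1.07 ± 0.17 (adjusted p = 0.0128). ADAMTS12 had 5.19, 5.51 and 2.55 FPKM at day 30 and 1.33, 1.13 and 0.822 at day 210. Day 30 replicate 3 was the low library of its age and still lay above all 3 of day 210, and ADAMTS12 fell by 1.99 ± 0.3 (adjusted p = 0.0102). ADAMTS8, ADAM12 and ADAM11 fell by 1.37 ± 0.19, 1.79 ± 0.24 and 1.95 ± 0.27 (adjusted p = 0.00679, 0.00686 and 0.00705). Bone morphogenetic protein 1, in spite of its name the procollagen C-proteinase, fell by 0.67 ± 0.14 (adjusted p = 0.0252). The rising members were matrix metalloproteinase-17, a membrane-anchored enzyme with 0.854, 0.197 and 0.14 FPKM at day 30 and 1.75, 2.96 and 4.03 at day 210, and 2 loci on separate scaffolds that both carry the name pappalysin-1, the protease that frees insulin-like growth factors. Matrix metalloproteinase-17 rose by 2.92 ± 0.63 (adjusted p = 0.0313), and the larger pappalysin-1 locus rose by 1.29 ± 0.26 (adjusted p = 0.0257) with 3, 3.66 and 3.2 FPKM at day 30 and 4.85, 8.38 and 9.9 at day 210. Calls lost with a single library left out numbered 5 of the 10 named; they were lost without one or another of the 9 libraries, with a highest adjusted p of 0.117 without day 210 replicate 2. Among protease inhibitors 4 of 18 fell and 0 rose. The pancreatic trypsin inhibitor-like locus on chromosome 17 had 29.6, 18.1 and 29.7 FPKM at day 30 and 3.36, 2.65 and 1.16 at day 210. This was a clear gap, and the locus fell by 3.38 ± 0.35 (adjusted p = 0.00309). The Kazal-type inhibitor 4 and serpin B10, a serpin of blood-forming cells, fell by 3.2 ± 0.49 and 1.93 ± 0.31 (adjusted p = 0.0106 and 0.012), and all 3 of these calls held with any library left out.

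Cell-to-cell contacts showed falling tetraspanins, membrane organisers with 4 transmembrane segments. All 5 called members of 16 fell. Tetraspanin-11 had 5.57, 7.56 and 5.76 FPKM at day 30 and 0.505, 0.749 and 1.05 at day 210 and fell by 2.96 ± 0.33 (adjusted p = 0.00406), while its chromosome 5 neighbour tetraspanin-9, a platelet tetraspanin, fell by 0.95 ± 0.2 (adjusted p = 0.0282). Tetraspanin-33, required for normal red cell formation in mice, fell by 1.15 ± 0.2 (adjusted p = 0.0154) and tetraspanin-15, a partner of ADAM10, fell by 1.21 ± 0.2 (adjusted p = 0.0122). Of 9 claudins and gap junction proteins 3 fell and 1 rose, with a median of 0.01. Claudin-5, the endothelial tight junction protein, had 11, 8.03 and 10.5 FPKM at day 30 and 4.71, 4.84 and 4.53 at day 210 and fell by 1.02 ± 0.16 (adjusted p = 0.0109). The vascular gap junction proteins alpha-4 (connexin 37) and gamma-1 (connexin 45) fell by 1.02 ± 0.23 and 0.86 ± 0.17 (adjusted p = 0.0336 and 0.0246). Claudin 3 variant 1 instead rose by 2.07 ± 0.42 (adjusted p = 0.0254), with 0.66, 0.615 and 0.856 FPKM at day 30 and 3.96, 1.33 and 3.41 at day 210. Of 19 cadherins, cadherin-11 of mesenchymal cells, cadherin-3 and protocadherin-18 fell by 1.03 ± 0.24, 0.86 ± 0.2 and 1.04 ± 0.23, and protocadherin gamma-B3 rose by 1.02 ± 0.23 (adjusted p = 0.0343). Of these 12 named calls, 9 did not hold in every fit with 1 library left out, failing without day 30 replicates 1, 2 and 3, day 90 replicates 2 and 3 or day 210 replicates 1, 2 and 3 (adjusted p of up to 0.118, without day 210 replicate 2). CLEC14A, the endothelial marker, moved with these loci, and its part in them was not tested.

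Receptors that guide vessel growth were lower at day 210. In the family of FGF, PDGF, VEGF and EGF ligands and receptors 8 of 24 fell, 0 rose, and the median was -0.59. VEGF receptor 3, best known from lymphatic and sinusoidal endothelium, had 3.06, 2.99 and 3.23 FPKM at day 30 and 1.19, 0.742 and 1.07 at day 210. All 3 day 210 libraries were under the lowest day 30 value, and it fell by 1.58 ± 0.18 (adjusted p = 0.00406). VEGF receptor 2, the main growth receptor of endothelium, had 13.5, 16.8 and 16.6 FPKM at day 30 and 9.35, 6.79 and 4.81 at day 210. It fell by 1.13 ± 0.22 (adjusted p = 0.022) and VEGF receptor 1 fell by 0.75 ± 0.14 (adjusted p = 0.0219), so all 3 receptors of the group passed. The angiopoietin-1 receptor (TIE2) fell by 1.06 ± 0.14 (adjusted p = 0.00679). Hepatocyte growth factor fell together with its receptor MET, the ligand by 0.85 ± 0.16 and the receptor by 1.47 ± 0.21 (adjusted p = 0.0186 and 0.00762); MET had 2.93, 3.14 and 3.51 FPKM at day 30 and 1.34, 1.18 and 0.835 at day 210. Fibroblast growth factor 18 fell by 1.78 ± 0.39 (adjusted p = 0.033), and the receptor erbB-2 fell by 0.61 ± 0.15 (adjusted p = 0.0496). 3 of these 8 named calls held with any 1 library left out; the others were lost without one or another of the 9 libraries, with adjusted p of up to 0.138 (without day 30 replicate 1). The family's median was -0.68 for day 90 against day 30 and 0.11 for day 210 against day 90.

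Guidance molecules first described in axons, many of them also used by vessels, counted 5 falling and 1 rising of 40. Ephrin type-B receptor 4, the receptor that marks veins, had 8.53, 7.49 and 6.26 FPKM at day 30 and 3.44, 2.62 and 2.82 at day 210 and fell by 1.29 ± 0.15 (adjusted p = 0.00495). The netrin receptor UNC5C, semaphorin-6A and plexin-A4, a semaphorin receptor, fell by 1 ± 0.15, 1.2 ± 0.19 and 1.22 ± 0.2 (adjusted p = 0.0109, 0.011 and 0.0127). Slit homolog 3, a secreted ligand of Robo receptors, was the most abundant of them with 54, 34.1 and 23.9 FPKM at day 30 and 16, 11.7 and 12.6 at day 210. It was uneven among the piglets, highest in replicate 1, and fell by 1.44 ± 0.28 (adjusted p = 0.0218). The one rising member was netrin-4, a netrin of basement membranes, which rose by 0.9 ± 0.16 (adjusted p = 0.0154) with 3.39, 3.98 and 3.64 FPKM at day 30 and 7.35, 7.66 and 5.03 at day 210. The developmental pathways had few calls: 2 of 21 Wnt loci fell, wntless, the carrier that brings Wnt proteins to the surface (0.84 ± 0.15 lower), and the receptor kinase ROR2 (0.98 ± 0.18 lower). In the TGF-beta and BMP pathway 1 of 23 fell, activin receptor type-1, and in the Notch pathway 1 of 12, the ligand delta-like protein 1, which had 30.2, 25.8 and 30.4 FPKM at day 30 and 21.4, 22.4 and 17.1 at day 210. The ligand fell by 0.46 ± 0.11 (adjusted p = 0.0447). Of the 10 calls named here, 4 held in all fits with a library left out, and the others were lost without one or another of the 9 libraries (adjusted p of up to 0.141, without day 30 replicate 1).

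**Figure D3:**
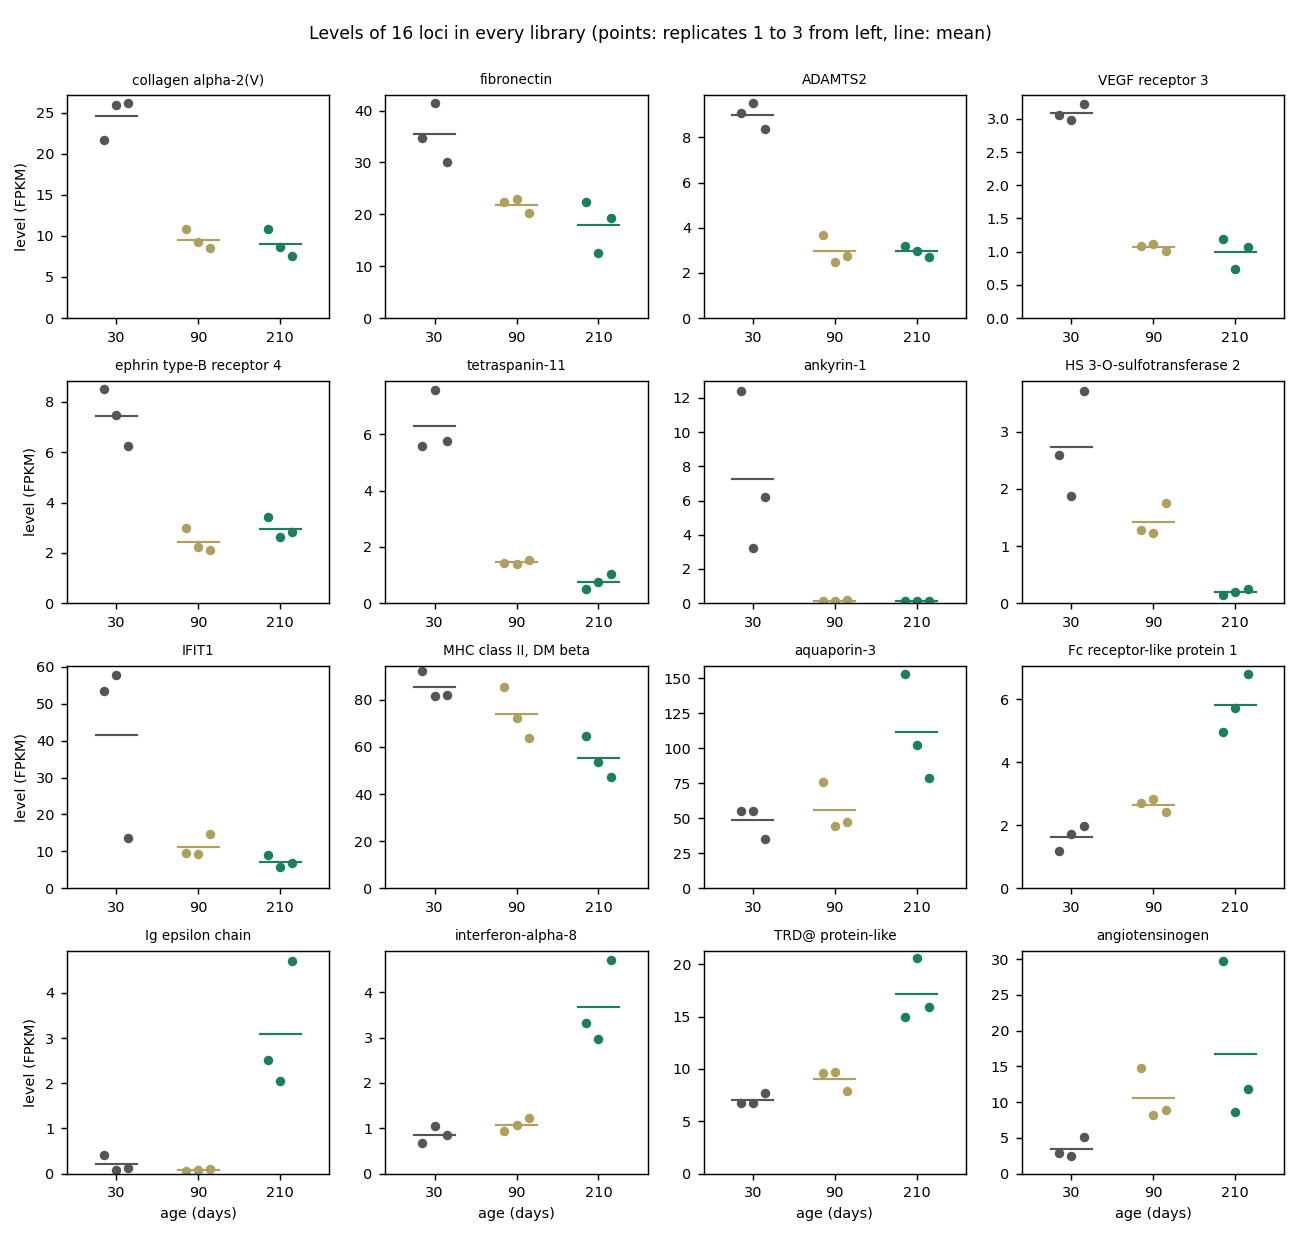
The plot of 16 loci has one panel per locus with FPKM on a linear axis from 0 against age in days (30, 90 and 210), points standing for the 3 libraries of an age and the line for their mean. Collagen alpha-2(V), ADAMTS2, VEGF receptor 3, tetraspanin-11 and ankyrin-1 lie lower in every day 210 library than in any day 30 library, and aquaporin-3, Fc receptor-like protein 1, the Ig epsilon chain and interferon-alpha-8 lie higher in every one.

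G protein-coupled receptors counted 8 falling and 1 rising of 80 tested. The alpha-2B adrenergic receptor, through which noradrenaline constricts vessels, had 5.15, 5.64 and 5.4 FPKM at day 30 and 2.07, 2.48 and 2.08 at day 210. It fell by 1.24 ± 0.16 (adjusted p = 0.00581), and the alpha-1D adrenergic receptor, another receptor of vascular smooth muscle, fell by 2.16 ± 0.42 (adjusted p = 0.0221). The endothelin-1 receptor fell by 1.17 ± 0.27 (adjusted p = 0.039). The adhesion receptors A2, which takes part in vessel growth, L2 and A3 fell by 1.11 ± 0.24, 0.71 ± 0.14 and 0.82 ± 0.17, and the proton sensor GPR4 by 0.64 ± 0.14. The rising receptor was C-C chemokine receptor type 9, which draws lymphocytes to the gut, with 1.35, 1.29 and 1.47 FPKM at day 30 and 3.1, 2.04 and 2.21 at day 210; it rose by 0.88 ± 0.14 (adjusted p = 0.0113). Downstream, the inhibitory subunit G(i) alpha-1 fell by 1.36 ± 0.15 (adjusted p = 0.00406), and regulator of G-protein signaling 1, a brake on chemokine receptors in lymphocytes, had 7.46, 6 and 6.73 FPKM at day 30 and 17.7, 26.9 and 13.3 at day 210. All 3 day 210 libraries were high, and it rose by 1.56 ± 0.26 (adjusted p = 0.0133). Leaving out single libraries spared 3 of the 10 named calls in every fit, the losses coming without one or another of the 9 libraries and reaching an adjusted p of 0.128 without day 30 replicate 2.

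Of 59 phosphodiesterases and phospholipases 7 fell and 0 rose. Phosphodiesterase 3A, which breaks down cyclic AMP in platelets and smooth muscle, had 8.12, 9.16 and 9.34 FPKM at day 30 and 4.08, 3.14 and 2.78 at day 210. It fell by 1.37 ± 0.13 (adjusted p = 0.00234), with 2 further undescribed loci in its gene model on chromosome 5 that were called in the same direction, and the cGMP-specific phosphodiesterase fell by 0.9 ± 0.16 (adjusted p = 0.0181). Phospholipase D4, an endosomal nuclease of dendritic cells and B cells, had 21, 18.5 and 22.5 FPKM at day 30 and 13.3, 12.6 and 8.85 at day 210 and fell by 0.79 ± 0.13 (adjusted p = 0.0132). Calls lost with a single library left out numbered 1 of the 3 named; they were lost without day 30 replicate 1, with a highest adjusted p of 0.0614 without day 30 replicate 1. Protein kinases had few calls, 7 of 235 falling and 3 rising. FLT3, the receptor of blood progenitors and dendritic cells, had 5.9, 4.35 and 4.16 FPKM at day 30 and 1.95, 1.72 and 1.15 at day 210 and fell by 1.54 ± 0.23 (adjusted p = 0.00961). Tyrosine-protein kinase Mer, by which macrophages take up dying cells, had 5.1, 6.1 and 6.61 FPKM at day 30 and 10.1, 8.09 and 7.1 at day 210 and rose by 0.55 ± 0.12 (adjusted p = 0.0335). PINK1, the kinase that marks damaged mitochondria, rose by 0.81 ± 0.19 (adjusted p = 0.0436). Of these 3 named calls, 2 did not hold in every fit with 1 library left out, failing without one or another of the 9 libraries (adjusted p of up to 0.122, without day 210 replicate 2). Phosphatases had 4 rising and 2 falling members, of 131. Dual specificity phosphatase 1, an immediate-early gene that switches off MAP kinases, had 10.1, 11.6 and 10.3 FPKM at day 30 and 26.6, 28.2 and 19 at day 210 and rose by 1.24 ± 0.16 (adjusted p = 0.00581), and the related DUSP10 rose by 1.02 ± 0.19 (adjusted p = 0.0206). The 56 kDa alpha subunit of phosphatase 2A rose by 0.51 ± 0.12 (adjusted p = 0.0369), although its groups overlapped by a single library. 1 of these 3 named calls held with any 1 library left out; the others were lost without day 30 replicates 1 and 2, day 90 replicates 2 and 3 or day 210 replicates 1 and 2, with adjusted p of up to 0.13 (without day 30 replicate 2).

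Membrane transport held some of the steepest falls and one of the more abundant rises. Of 30 ABC transporters 7 fell and 1 rose, 5 of the falls being loci named multidrug resistance-associated protein 4-like, an exporter of organic anions. The name stands on 9 loci of the table, so reads may be divided or shared between near-identical copies. The most abundant, chromosome 11, 70607746 to 70657742, plus strand, had 10.7, 2.49 and 6.12 FPKM at day 30 and 0.037, 0.0584 and 0.0341 at day 210. This locus fell by 7.1 ± 0.58 (adjusted p = 0.00124); of the other 4, the one that moved least fell by 5.27 ± 0.79 and the one that moved most fell by 6.9 ± 0.86. ABCB6, a porphyrin transporter of red cell precursors, fell by 2.13 ± 0.32 (adjusted p = 0.00994). The rising ABC transporter was ABCA5, a lysosomal lipid transporter, which rose by 1.02 ± 0.18 (adjusted p = 0.0173) with 2.44, 2.35 and 2.9 FPKM at day 30 and 6.53, 3.64 and 4.93 at day 210. Aquaporins parted: aquaporin-3, a channel for water and glycerol (chromosome 10, 71449684 to 71455835, minus strand), had 55.1, 55.2 and 35.1 FPKM at day 30 and 153, 102 and 79.1 at day 210. It was high in all 3 day 210 libraries and rose by 1.22 ± 0.25 (adjusted p = 0.0272). Aquaporin-1, the water channel of red cells and endothelium, fell by 0.83 ± 0.18 (adjusted p = 0.0294) with 38.6, 24.3 and 31 FPKM at day 30 and 19, 18.3 and 13.9 at day 210. Of 64 ion channels 3 fell: TRPM4 by 1.06 ± 0.15, the calcium channel subunit alpha-2/delta-1 by 0.99 ± 0.18 and the inward rectifier potassium channel 8, a vascular KATP channel, by 0.89 ± 0.21 (adjusted p = 0.00889, 0.0188 and 0.0416). Of the 12 calls named here, 6 held in all fits with a library left out, and the others were lost without one or another of the 9 libraries (adjusted p of up to 0.14, without day 30 replicate 2).

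In the cytoskeleton the largest falls were red cell and platelet proteins. Ankyrin-1, which ties the red cell membrane to spectrin, had 12.4, 3.2 and 6.21 FPKM at day 30 and 0.121, 0.111 and 0.128 at day 210 and fell by 5.85 ± 0.54 (adjusted p = 0.00234). Erythrocyte membrane protein band 4.2 had 32.1, 8.93 and 12.3 FPKM at day 30 and 1.63, 1.01 and 0.898 at day 210 and fell by 3.88 ± 0.52 (adjusted p = 0.00673), and the actin cap tropomodulin-1 fell by 2.02 ± 0.42 (adjusted p = 0.0267). Day 30 replicate 2 was the lowest piglet library in all 3 of them, as in the summed erythroid markers, whose part was not tested. Ankyrin-1 (ANK1) is itself among those markers, so its own match with the sum adds nothing. Of 12 tubulins 2 fell and 0 rose: tubulin beta-1, which forms the marginal band of platelets, had 11.6, 9.8 and 8.87 FPKM at day 30 and 2.93, 3.2 and 3.46 at day 210. This tubulin fell by 1.6 ± 0.23 (adjusted p = 0.00781), and tubulin beta-6 fell by 1.29 ± 0.15 (adjusted p = 0.00421). Non-muscle myosin-10 heavy chain, unconventional myosin-Ie and myosin light polypeptide 6 fell by 0.72 ± 0.13, 0.57 ± 0.12 and 0.57 ± 0.14 (adjusted p = 0.0173, 0.0297 and 0.0459), and 1 of 56 kinesins and dyneins was called, KIF13B, higher by 0.37 ± 0.09. Leaving out single libraries spared 4 of the 9 named calls in every fit, the losses coming without one or another of the 9 libraries and reaching an adjusted p of 0.154 without day 30 replicate 2.

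Vesicle traffic had few calls. Of 39 Rab GTPases 2 fell and 1 rose: Rab-7b, of late endosomes, had 10.2, 8.14 and 8.37 FPKM at day 30 and 4.46, 3.53 and 2.01 at day 210. Rab-7b fell by 1.38 ± 0.26 (adjusted p = 0.02), Rab-34 fell by 0.89 ± 0.21 (adjusted p = 0.0404) and Rab-9A rose by 0.69 ± 0.15 (adjusted p = 0.0331). Synaptotagmin-2, a calcium sensor for secretion, had 4.57, 3.92 and 4.47 FPKM at day 30 and 0.93, 1.61 and 1.78 at day 210. It fell by 1.51 ± 0.25 (adjusted p = 0.0129), while synaptotagmin-like protein 3 rose by 0.62 ± 0.14 (adjusted p = 0.035) and synaptotagmin-like protein 4 fell by 0.97 ± 0.24 (adjusted p = 0.0485). Calls lost with a single library left out numbered 5 of the 6 named; they were lost without one or another of the 9 libraries, with a highest adjusted p of 0.151 without day 30 replicate 2.

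Protein turnover was close to the background, 7 of 198 ubiquitin-conjugating enzymes and ligases falling and 5 rising. TRIM58, a ligase of maturing red cells, had 5.38, 2.05 and 2.57 FPKM at day 30 and 0.257, 0.174 and 0.135 at day 210 and fell by 4.08 ± 0.6 (adjusted p = 0.00923), in the library order of the erythroid markers. CBL-B, the ligase that damps T cell activation, had 3.07, 2.78 and 3.38 FPKM at day 30 and 6.09, 6.59 and 5.47 at day 210. All 3 day 210 libraries were above day 30, and it rose by 1.03 ± 0.13 (adjusted p = 0.00581). The other rising ligases were MDM2, the ligase of p53, by 0.48 ± 0.11, ZNRF2 by 0.65 ± 0.14, RNF149 by 0.65 ± 0.16 and RING finger protein 122 by 0.74 ± 0.18. VCIP135, the 1 deubiquitinase called of 51, fell by 0.9 ± 0.18 (adjusted p = 0.0239). Of these 7 named calls, 5 did not hold in every fit with 1 library left out, failing without one or another of the 9 libraries (adjusted p of up to 0.133, without day 30 replicate 2).

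Of 417 zinc finger proteins, the largest family, 6 fell and 5 rose, both near or under the background shares. PR domain zinc finger protein 1 (BLIMP-1), the factor that makes B cells into plasma cells, had 1.83, 1.95 and 1.99 FPKM at day 30 and 4.47, 3.47 and 3.58 at day 210 and rose by 1.04 ± 0.12 (adjusted p = 0.00408). Aiolos, a lymphocyte factor, rose by 0.58 ± 0.14 (adjusted p = 0.0487). The bHLH protein 15 (MIST1), a factor of secretory cells that include plasma cells, had 2.18, 4 and 3.89 FPKM at day 30 and 8.22, 5.97 and 7.96 at day 210 and rose by 1.18 ± 0.26 (adjusted p = 0.0318). In the same family TAL1, a master factor of blood stem cells and red cells, had 7.29, 3.75 and 5.3 FPKM at day 30 and 0.692, 0.808 and 0.994 at day 210, every day 210 library far below day 30, and fell by 2.64 ± 0.3 (adjusted p = 0.00406). SOX-6, which helps red cells mature, fell by 2.71 ± 0.34 (adjusted p = 0.00522), and SOX-12 fell by 1.67 ± 0.29 (adjusted p = 0.0155), 2 of 7 SOX loci. Of 33 homeobox loci 3 fell and 0 rose; Nkx-2.5, needed to form the spleen in mice, fell by 0.85 ± 0.17 and Meis3 by 0.81 ± 0.15 (adjusted p = 0.0221 and 0.02). Forkhead box protein S1, of pericytes, fell by 0.96 ± 0.22 (adjusted p = 0.0367), and the immediate-early nuclear receptor NR4A1 rose by 0.93 ± 0.21 (adjusted p = 0.0346). 3 of these 10 named calls held with any 1 library left out; the others were lost without one or another of the 9 libraries, with adjusted p of up to 0.122 (without day 30 replicate 2).

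Chromatin, RNA and replication factors had few calls. DNA methyltransferase 3B, which sets new methylation marks, had 4.12, 3.92 and 4.29 FPKM at day 30 and 1.77, 1.51 and 1.96 at day 210 and fell by 1.18 ± 0.15 (adjusted p = 0.0059). SUZ12, a core subunit of the polycomb complex that methylates histone H3, and SCMH1 rose by 0.59 ± 0.14 and 0.92 ± 0.2 (adjusted p = 0.0465 and 0.0307), 2 rising against 3 falling of 113 histone modifiers. The repair protein XRCC2 fell by 1.73 ± 0.36 (adjusted p = 0.0269) and DNA polymerase delta subunit 2 fell by 0.8 ± 0.16 (adjusted p = 0.0257), the 2 called of 73 repair loci. Splicing factors had 2 falls of 101, U1 snRNP C and Sm D2, of 0.6 ± 0.14 and 0.48 ± 0.12. No translation factor (54 tested) and no tRNA synthetase (33 tested) passed edgeR's test, with medians of -0.13 and -0.06. Exportin-7, a nuclear transport receptor of red cell precursors, fell by 1.06 ± 0.2 (adjusted p = 0.0209). Of the 8 calls named here, 1 held in all fits with a library left out, and the others were lost without one or another of the 9 libraries (adjusted p of up to 0.155, without day 30 replicate 2).

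Metabolic enzymes had few calls. Heparan sulfate 3-O-sulfotransferase 2, which places a rare sulfate on heparan chains (chromosome 3, 114875339 to 114984261, plus strand), had 2.6, 1.88 and 3.72 FPKM at day 30 and 0.141, 0.204 and 0.243 at day 210 and fell by 3.72 ± 0.38 (adjusted p = 0.00307), in all 9 fits with a library left out. Of 6 carbonic anhydrases 3 fell: CA1, abundant in red cells, with 33.8, 12.3 and 21.9 FPKM at day 30 and 0.985, 0.0908 and 0.298 at day 210, fell by 5.55 ± 0.68 (adjusted p = 0.0051). CA2 beside it on chromosome 4 fell by 4.55 ± 0.56 (adjusted p = 0.0051), and the carbonic anhydrase-related protein fell by 0.79 ± 0.2 (adjusted p = 0.0496). In lipid synthesis the acyl-CoA ligase ACSL6 and lysophospholipid acyltransferase 1 fell by 1.64 ± 0.36 and 0.99 ± 0.25, whereas choline kinase alpha, the entry step of phosphatidylcholine synthesis, rose by 0.5 ± 0.09 (adjusted p = 0.0187) and ethanolamine-phosphate phospho-lyase, which breaks phosphoethanolamine down, had 1.43, 2.16 and 2.04 FPKM at day 30 and 4.68, 5.47 and 3.13 at day 210. The lyase rose by 1.28 ± 0.22 (adjusted p = 0.0153). The cytochromes P450 parted, 2S1 fell by 1.1 ± 0.24 (adjusted p = 0.0325) and 2U1 rose by 0.49 ± 0.12 (adjusted p = 0.0491). In glycan synthesis the branching enzyme MGAT4A had 9.75, 8.59 and 9.66 FPKM at day 30 and 16.1, 15.3 and 11 at day 210. MGAT4A rose by 0.64 ± 0.13 (adjusted p = 0.0249), and an alpha-2,8-sialyltransferase rose by 0.68 ± 0.17 (adjusted p = 0.0491), the 2 rising of 89 glycosyltransferases against 1 falling. The 5'-nucleotidases NT5DC3 and NT5C3A, the latter the pyrimidine nucleotidase of red cells, fell by 0.96 ± 0.15 (adjusted p = 0.0119) and by 0.99 ± 0.22 (adjusted p = 0.0326). Leaving out single libraries spared 5 of the 14 named calls in every fit, the losses coming without one or another of the 9 libraries and reaching an adjusted p of 0.171 without day 30 replicate 2.

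The remaining families had few calls. Of 132 loci named only as transmembrane proteins 6 fell and 2 rose, TMEM98 by 1.48 ± 0.26 downwards and TMEM59-like by 1.77 ± 0.42 upwards. Repeat proteins (ankyrin, leucine-rich, WD and tetratricopeptide) had 6 falls of 131 and no rise, with leucine-rich repeat protein 4B, a synaptic adhesion protein in brain, at 1.99, 2.02 and 2.37 FPKM at day 30 and 0.48, 0.208 and 0.632 at day 210. It fell by 2.2 ± 0.36 (adjusted p = 0.013), and leucine-rich repeat protein 75A fell by 1.49 ± 0.23 (adjusted p = 0.0109). Coiled-coil domain protein 146, with 0.744, 0.759 and 0.813 FPKM at day 30 and 1.78, 2.19 and 1.38 at day 210, was the 1 call of 56 of its kind and rose by 1.25 ± 0.17 (adjusted p = 0.00744). Of 105 F-box, KLHL and BTB proteins, which mostly choose targets for ubiquitin ligases, F-box protein 4 rose by 0.94 ± 0.18 (adjusted p = 0.0215), while F-box proteins 9 and 39 fell by 0.54 ± 0.11 and 1.68 ± 0.39. The plasma membrane calcium pump 4 fell by 0.61 ± 0.13 (adjusted p = 0.0271), the 1 call of 34 P-type ATPases and V-ATPase subunits, and septin-8 fell by 0.59 ± 0.12 (adjusted p = 0.0221), the 1 call of 14 septins and annexins. DHRS4, a carbonyl reductase, fell by 0.86 ± 0.16 (adjusted p = 0.0203), the 1 call of 29 dehydrogenases of alcohols, aldehydes, retinol and steroids. A locus named as the helicase DDX59 fell by 1.48 ± 0.35 (adjusted p = 0.0427). Another locus of that name had the highest difference of the helicase family, 0.645, and did not pass. Guanylate-binding protein 5, an interferon-induced GTPase, rose by 0.45 ± 0.11 (adjusted p = 0.0498), and butyrophilin 2A2, a T cell co-regulator, rose by 0.62 ± 0.13 (adjusted p = 0.0289), whereas none of 5 GIMAP GTPases of lymphocytes passed, with a median of 0.1. Calls lost with a single library left out numbered 11 of the 14 named; they were lost without one or another of the 9 libraries, with a highest adjusted p of 0.17 without day 30 replicate 2.

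Genes expressed from a single parental copy in other mammals were looked up as a group of 9 tested loci, of which 3 fell and 0 rose. Epsilon-sarcoglycan had 1.72, 1.91 and 1.78 FPKM at day 30 and 0.856, 0.714 and 0.471 at day 210 and fell by 1.37 ± 0.24 (adjusted p = 0.0154). Necdin, a growth-restraining protein, had 4.61, 4.82 and 3.62 FPKM at day 30 and 1.82, 1.78 and 1.11 at day 210 and fell by 1.43 ± 0.3 (adjusted p = 0.0277), and the adaptor GRB10, which damps insulin signalling, fell by 0.67 ± 0.12 (adjusted p = 0.0181). The files do not show which parental copy was read. Of these 3 named calls, 3 did not hold in every fit with 1 library left out, failing without day 30 replicates 1 and 2 or day 210 replicates 1, 2 and 3 (adjusted p of up to 0.0963, without day 30 replicate 2).

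Apart from the MRP4-like loci, the largest falls over all named loci were mostly those of red cell precursors. Krueppel-like factor 1, the red cell factor, had 5.84, 1.41 and 3.01 FPKM at day 30 and 0, 0 and 0.051 at day 210 and fell by 7.44 ± 1.26 (adjusted p = 0.0146), resting on 4 counts in all at day 210. Band 3, the anion exchanger of red cells, had 44.8, 10.8 and 23.8 FPKM at day 30 and 0.917, 0.598 and 0.433 at day 210 and fell by 5.31 ± 0.56 (adjusted p = 0.00334). The Rh polypeptide (5.24 lower), erythroid membrane-associated protein (5.2 lower), Rh type A (5.14 lower), TRIM10 (4.69 lower) and CKLF-like protein 5 (4.65 lower) followed, and also CREB3-like protein 3, a membrane-bound factor best known from liver, which had 6.31, 1.98 and 3.23 FPKM at day 30 and 0.126, 0.166 and 0.0868 at day 210. This factor fell by 4.84 ± 0.52 (adjusted p = 0.00343). In each of them day 30 replicate 1 was the highest and replicate 2 the lowest piglet library, as in the summed erythroid markers. Band 3 (SLC4A1) and Rh type A (RHAG) are themselves part of that sum, so their match with it adds nothing. 6 of these 8 named calls held with any 1 library left out; the others were lost without day 210 replicate 2, with adjusted p of up to 0.0639 (without day 210 replicate 2).

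The largest rises among called loci with 1 name were those of immunoglobulin loci, an olfactory receptor and matrix metalloproteinase-17, which are described with their families, and the next were drawn from unlike genes. The protein fosB, an immediate-early transcription factor, had 0.653, 0.748 and 0.313 FPKM at day 30 and 3.78, 3.77 and 1.91 at day 210 and rose by 2.46 ± 0.5 (adjusted p = 0.0255). Glycoprotein GP2, an uptake receptor on intestinal M cells and a pancreatic granule protein, had 0.487, 0.226 and 0.208 FPKM at day 30 and 1.43, 1.35 and 2.2 at day 210 and rose by 2.46 ± 0.38 (adjusted p = 0.011), while the pancreas marker CPA1 did not exceed 0.422 FPKM in any library of these ages. Laminin gamma-3, a basement membrane chain, rose by 2.31 ± 0.52 (adjusted p = 0.034), against the direction of the collagens. Angiotensinogen, the precursor of angiotensin, had 2.85, 2.49 and 5.15 FPKM at day 30 and 29.8, 8.61 and 11.9 at day 210. Day 210 replicate 1 was by far the highest, yet all 3 exceeded day 30, and the locus rose by 2.3 ± 0.42 (adjusted p = 0.0189). Angiotensin-converting enzyme, which acts on its product, had 13.7, 11.1 and 8.7 FPKM at day 30 and 6.6, 4.51 and 5.23 at day 210 and fell by 1.0 ± 0.22 (adjusted p = 0.034). The sodium/glucose cotransporter 1-like locus had 0.522, 0.568 and 0.668 FPKM at day 30 and 2.43, 2.43 and 2.8 at day 210, low and even within each age, and rose by 2.18 ± 0.22 (adjusted p = 0.00304). Of the 6 calls named here, 2 held in all fits with a library left out, and the others were lost without day 30 replicates 1, 2 and 3, day 90 replicate 3 or day 210 replicates 1, 2 and 3 (adjusted p of up to 0.111, without day 30 replicate 2).

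Immunoglobulin loci were the family with the most rising members, 8 of 29 tested (56 in the table), none falling, with a median of 0.82. The epsilon chain of IgE, the antibody class of worm infection and allergy, had 0.401, 0.0758 and 0.133 FPKM at day 30 and 2.51, 2.04 and 4.7 at day 210. The lowest day 210 library was far above the highest of day 30, and the locus rose by 3.97 ± 0.62 (adjusted p = 0.0109). The IgG heavy chain on a short scaffold had 22.9, 17.1 and 16.8 FPKM at day 30 and 83.2, 70.6 and 267 at day 210, with day 210 replicate 3 far above the others, and rose by 2.98 ± 0.57 (adjusted p = 0.0212). A gamma chain locus on another scaffold, with 2.06, 2.13 and 0.785 FPKM at day 30 and 9.95, 5.79 and 37.5 at day 210, was highest in the same library and rose by 3.48 ± 0.75 (adjusted p = 0.0307). The other 5 were kappa variable regions, 2 on chromosome 3 and 3 on scaffolds, of which one had 1.99, 0.357 and 0.237 FPKM at day 30 and 11.4, 27.6 and 8.25 at day 210 and rose by 4.2 ± 0.78 (adjusted p = 0.0193). The name of kappa variable region stands on 40 loci, and reads of related segments may be divided among them. Neither B cell marker passed the test, CD79B and MS4A1 summing to 29.9 to 38.3 FPKM at day 30 and 26.4 to 28.4 at day 210. The family's median was 1.2 for day 90 against day 30 and 0.04 for day 210 against day 90. Leaving out single libraries spared 1 of the 8 named calls in every fit, the losses coming without one or another of the 9 libraries and reaching an adjusted p of 0.154 without day 30 replicate 2.

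T cell receptor loci also rose where they were called, 3 of 17, with a median of 0.6. The TRD@ protein-like locus on chromosome 7 had 6.74, 6.74 and 7.66 FPKM at day 30 and 15, 20.6 and 15.9 at day 210 and rose by 1.34 ± 0.17 (adjusted p = 0.00581). The delta chain constant region, a chain of the gamma-delta T cells that are common in pigs, rose by 0.6 ± 0.14 (adjusted p = 0.04), and 1 of the loci named T cell receptor alpha chain rose by 1.07 ± 0.22 (adjusted p = 0.0247). CD3D rose with them, by 0.72 (adjusted p = 0.0247). Fc receptor-like protein 1, a B cell surface protein, had 1.2, 1.73 and 1.97 FPKM at day 30 and 4.96, 5.72 and 6.78 at day 210 and rose by 1.89 ± 0.22 (adjusted p = 0.00406), and the inhibitory receptor LILRB3 rose by 1.26 ± 0.22 (adjusted p = 0.0172), the 2 calls of 15 such receptors. Among scavenger receptors M130 (CD163), by which macrophages take up haemoglobin bound to haptoglobin, had 61, 72.2 and 57.2 FPKM at day 30 and 145, 148 and 90.4 at day 210 and rose by 1.04 ± 0.19 (adjusted p = 0.0177). CD5 antigen-like, a secreted macrophage protein, rose by 0.99 ± 0.23 (adjusted p = 0.0374), and scavenger receptor class F member 2 fell by 0.6 ± 0.13 (adjusted p = 0.0342). The pig's MHC (SLA) loci gave 2 falls of 15 and no rise: the beta and alpha chains of DM, which loads peptide onto class II molecules, lie next to each other on chromosome 7. DM beta had 92.2, 81.5 and 81.9 FPKM at day 30 and 64.7, 53.4 and 47.3 at day 210 and fell by 0.59 ± 0.11 (adjusted p = 0.0224), and DM alpha fell by 0.66 ± 0.15 (adjusted p = 0.0354). The SLA median was 0.1 for day 90 against day 30 and -0.49 for day 210 against day 90. Calls lost with a single library left out numbered 9 of the 11 named; they were lost without one or another of the 9 libraries, with a highest adjusted p of 0.124 without day 30 replicate 1.

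A locus named as an interferon gene rose, while some loci known to be induced by interferon, picked after their values were seen, fell. Interferon-alpha-8 on chromosome 1 had 0.663, 1.04 and 0.859 FPKM at day 30 and 3.33, 2.96 and 4.71 at day 210. The day 210 libraries all lay above those of day 30, and the locus rose by 2.15 ± 0.34 (adjusted p = 0.0114); it was the 1 called of 5 tested type I interferon loci, of 32 in the table, and 6 loci share its name. It belongs to a run of 7 tested loci between positions 52619788 and 52921391 of chromosome 1 that rose by 1.28 to 4.11, the other 6 without a description. These loci overlap. Interferon-alpha-8 (52686347 to 52686916, minus strand) lies inside longer members, among them MSTRG.360 on the same strand (52663121 to 52696754), which rose by 3.52. Reads of a longer transcript may be counted in it, so its rise and theirs cannot be told apart. In contrast IFIT1, an RNA-binding antiviral protein induced by interferon, had 53.3, 57.7 and 13.6 FPKM at day 30 and 9.07, 5.85 and 6.83 at day 210. Piglet replicates 1 and 2 were high, and replicate 3 lay nearer the older pigs. It fell by 2.5 ± 0.52 (adjusted p = 0.0266). IFIT3, IFIT2, EPSTI1, DHX58, DDX60, HERC6, RNF213, the kinase PKR, the NFX1-type zinc finger protein, inflammatory response protein 6 and XAF1, named after their values were seen, had the same pattern of libraries and fell by between 1.44 ± 0.33 (RNF213) and 2.98 ± 0.57 (inflammatory response protein 6). Of these 13 named calls, 12 did not hold in every fit with 1 library left out, failing without day 30 replicates 1 and 2, day 90 replicates 1, 2 and 3 or day 210 replicates 1, 2 and 3 (adjusted p of up to 0.159, without day 30 replicate 2). Over all 712 falling loci, 40 had day 30 replicate 3 at under 50% of both other piglet libraries, and 19 had day 30 replicate 2 under that limit. In 9, day 30 replicate 1 was over 2 times both others. Interferon-induced loci were not counted as a family, so the share of them that fell is not known. Guanylate-binding protein 5, also induced by interferon, rose by 0.45, and of 3 guanylate-binding proteins tested 1 rose and 0 fell.

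Olfactory receptors, which are expressed in the nose and at low level in other tissues, were nearly all under the minimum level: 9 of 793 olfactory and taste receptor loci were tested, and 2 of them rose. They lie side by side on 1 scaffold. The called 12D3-like locus had 1.19, 1.8 and 3.05 FPKM at day 30 and 6.82, 13 and 5.12 at day 210 and rose by 2.1 ± 0.4 (adjusted p = 0.0208). Another locus named 12D3-like had the largest difference of the family, 3.47, and did not pass. Reads may be divided between loci of that name. The 5V1-like locus rose by 3.12 ± 0.69 (adjusted p = 0.0335) with 0.321, 0.356 and 0.574 FPKM at day 30 and 2.96, 7.01 and 0.609 at day 210. Its day 210 replicate 3 was barely above the highest of day 30. 0 of these 2 named calls held with any 1 library left out; the others were lost without day 30 replicates 1, 2 and 3, day 90 replicate 2 or day 210 replicates 1 and 2, with adjusted p of up to 0.118 (without day 30 replicate 2).

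Calls were spread over all chromosomes, with unequal shares. Chromosome 16 had the highest share of rising loci, 34 of 438 (7.76%), of which 24 had no description, followed by chromosome 18 with 24 of 458 (5.24%), of which 21 had none. Chromosome 17 had the lowest, 2 of 525 (0.381%), beside 27 falling loci (5.14%). The highest shares of falling loci were on chromosomes 12 (5.42%) and 11 (5.29%), and the X chromosome had 2.07% rising and 2.76% falling. Neighbouring loci can share reads or a gene model, so these shares are not made of independent events.

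**Figure D4:**
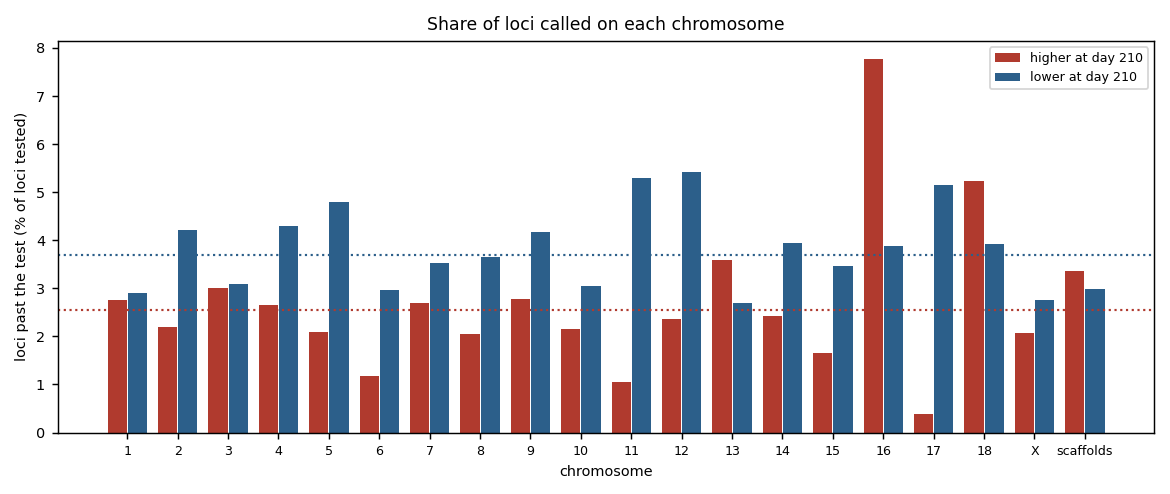
The plot of chromosomes gives the percent of tested loci on each chromosome, and on all unplaced scaffolds together, that were higher and lower at day 210, with dotted lines at the shares over all loci (2.55% and 3.7%). Chromosome 16 (7.76%) and chromosome 18 (5.24%) have the highest shares of rising loci, and chromosome 17 (0.381%) the lowest.

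Called loci also formed runs: in 35 places at least 3 neighbouring tested loci were called in 1 direction, 16 rising and 19 falling, 129 loci in all. In 12 runs no member had a description, and in 8 all members lay within 1 gene model, where several loci can be pieces of a single transcript. Members of other runs also overlap or lie inside each other, so the loci of a run are not all separate genes. Beside the interferon cluster, a run of 7 rising loci lay on chromosome 3 between 78336217 and 78657176. It held MGAT4A, a KIAA1211-like gene and undescribed loci that all lie within the spans of these genes. The KIAA1211-like locus had 2.84, 3.05 and 1.86 FPKM at day 30 and 5.8, 5.76 and 4.67 at day 210 and rose by 1.1 ± 0.2 (adjusted p = 0.0195); without day 210 replicate 2 its adjusted p was 0.062. On chromosome 5, between 87372014 and 87610936, 7 undescribed loci fell by 0.68 to 1.34. The longest of them spans the whole stretch and so contains the others. On chromosome 13, between 161389548 and 161683746, 6 undescribed loci rose by 2.21 to 2.9, each with its highest level in day 210 replicate 1 and its lowest in replicate 3. On chromosome 16, 3 undescribed loci in the gene model of Kv channel-interacting protein 1 rose by 2.06 to 2.99.

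Runs with named members were of several kinds: some joined unlike genes, others held related genes or overlapping loci of a single gene. On chromosome 6 the interleukin-12 receptor subunit beta-2, which lets T and NK cells sense interleukin-12, had 1.75, 1.09 and 2.27 FPKM at day 30 and 2.89, 5.35 and 5.38 at day 210. It rose by 1.49 ± 0.3 (adjusted p = 0.0244). The other 2 loci of this run, both undescribed, lie inside or overlap the receptor locus and can be pieces of that gene. On chromosome 12 the scaffold protein TANC2, cytochrome b561 and angiotensin-converting enzyme fell side by side, by 0.59, 0.92 and 1.0. At another place on chromosome 6 the actin-binding protein IPP, the kinase MAST2 and a regulatory subunit of phosphatidylinositol 3-kinase fell by 0.64, 0.76 and 1.01. Alpha-type globins fell as a run on chromosome 3: hemoglobin alpha had 4584, 4910 and 2389 FPKM at day 30 and 1235, 302 and 898 at day 210, mu fell by 2.88, and the embryonic chain zeta by 4.13, with 0.385, 0 and 0.262 FPKM left at day 210. Day 210 replicate 2 held the least globin RNA of the older pigs. The runs were found by a rule on calls and get no test. Of the 10 calls named here, 0 held in all fits with a library left out, and the others were lost without one or another of the 9 libraries (adjusted p of up to 0.147, without day 30 replicate 1).

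Among undescribed loci, the 2 falling and the 2 rising ones with the smallest p were followed. One fell from 2.3, 2.58 and 3.57 FPKM at day 30 to 0.0746, 0.0901 and 0.0921 at day 210, with 15787, 17552 and 23312 counts against 517, 537 and 555. This locus, MSTRG.1030 (chromosome 1, 145492271 to 145582319, minus strand), lies within the gene model of a nuclear receptor ROR-alpha-like gene, and at day 90 it still had 12200, 10502 and 11423 counts. It fell by 4.97 ± 0.2 (adjusted p = 1.72e-05), the smallest adjusted p of all 19264 loci, whereas the ROR-alpha-like locus itself did not pass (-0.39, adjusted p = 0.633). MSTRG.12097 (chromosome 8, 123517040 to 123524975, minus strand), in the gene model of the cap-binding factor eIF4E, had 1.89, 2.17 and 2.84 FPKM at day 30 and 0.0585, 0.0319 and 0.0896 at day 210 and fell by 5.15 ± 0.31 (adjusted p = 0.000357), and its host did not pass (0.12). Rising were MSTRG.14992 (chromosome 12, 20896542 to 20993438, minus strand), with 1.13, 1.18 and 1.21 FPKM at day 30 and 3.76, 3.75 and 2.39 at day 210, by 1.53 ± 0.15 (adjusted p = 0.00297), and MSTRG.10137 (chromosome 7, 27450080 to 27457905, plus strand), in the gene model of the kinase MARK3, by 1.05 ± 0.11 (adjusted p = 0.00309). These 4 calls held with any 1 library left out. Of all undescribed loci 3569 lay within the model of a tested named gene, 137 of them rising and 42 falling. On the strand opposite to the host gene 102 of 1936 rose and 20 fell, and on the same strand 24 of 803 rose and 14 fell. Of the 179 calls, the host was called in the same direction in 46, in the other in 0, and was not called in 133. The labels do not say whether the libraries kept strand, so reads of a gene and of an opposite-strand locus within it cannot be told apart with certainty.

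Circular RNAs, closed loops made by back-splicing and counted by reads across the back-splice junction, were sparse. Junction reads came to 12037, 11878 and 12252 at day 30 and 15397, 11434 and 10962 at day 210, and the spread between libraries was wide (58.5%). Of 2748 tested circRNAs, which held 69% of junction reads, 9 passed (0.328%), 5 rising (0.182%) and 4 falling (0.146%), and 155 had an unadjusted p under 0.05. DESeq2 called 0, with 61 at an unadjusted p under 0.05, and with reads required in at least 6 libraries edgeR called 0 of 1398, with 62. Of the 9 called circRNAs only circRNA3363 and circRNA10751 had reads in that many libraries. The others could not enter that fit, so it does not test their calls. By type, 6 of 355 intergenic circRNAs (1.69%), 2 of 87 intronic ciRNAs (2.3%) and 1 of 2306 exonic circRNAs (0.0434%) passed.

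Of the 4 falling ones, 3 came from 1 place on chromosome 10. The intronic ciRNA145, between 1913538 and 1919786, had 147, 161 and 141 junction reads at day 30. It had 0, 0 and 163 at day 90, then 2, 0 and 0 by day 210. That is a ratio of 235, with a 95% exact interval of 64.6 to 1943 that covers counting error only. CircRNA3443, which spans it, had 13, 13 and 21, then 0, 0 and 21, then 0 in all 3, and was at least 16.4-fold lower, taking 3 counts over the group as the floor. CiRNA147 had 8, 12 and 8, then 0, 0 and 5, then 0, and was at least 9.75-fold lower. All 3 were thus present in the 3 piglets and in day 90 replicate 3 and nearly absent from the other 5 libraries. The linear locus there, named uncharacterized protein LOC100521600, was present in the same 4 libraries: it had 3.62, 3.95 and 4.53 FPKM at day 30. It then had 0.0102, 0.00279 and 3.27 at day 90, with 0.0639, 0 and 0.00673 left by day 210. Its fitted difference of -7.33 ± 2.34 did not pass (adjusted p = 0.0998). Without 1 library ciRNA145 and circRNA3443 kept their calls, and ciRNA147 lost its call in 2 of 9 fits.

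Of the other calls, circRNA3435 had 25, 0 and 14 reads at day 30 and 0 in all 3 libraries at day 210, at least 13.6-fold lower. The one exonic call came from protein diaphanous homolog 2, an actin-nucleating formin, on the X chromosome between 80695596 and 80734373: circRNA12804 had 0 reads in the 3 piglets, 0, 7 and 18 at day 90 and 14, 14 and 7 at day 210, at least 11.2-fold higher. The linear locus of that gene did not pass (0.18, adjusted p = 0.538). The other rising ones were intergenic. CircRNA10726 had 11, 20 and 0 reads at day 210 and circRNA10751 had 10, 10 and 4, against 0 in the piglets, at least 9.89-fold and 7.66-fold higher. CircRNA3363 had 9, 9 and 6 reads at day 30 and 18, 21 and 80 at day 210. CircRNA3375 had reads in 1 library at each of these ages, 10 in day 30 replicate 1 and 56 in day 210 replicate 2, so its groups overlapped. CircRNA12804 and circRNA3435 kept their calls with any library left out, and the others lost theirs in 1 to 5 of 9 fits. The most abundant circRNA had 411, 259 and 314 reads at day 30 and 261, 252 and 377 at day 210 and did not pass (-0.17 ± 0.56), and exportin-4's circRNA641 had 92, 125 and 105 against 96, 73 and 97.

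**Figure D5:**
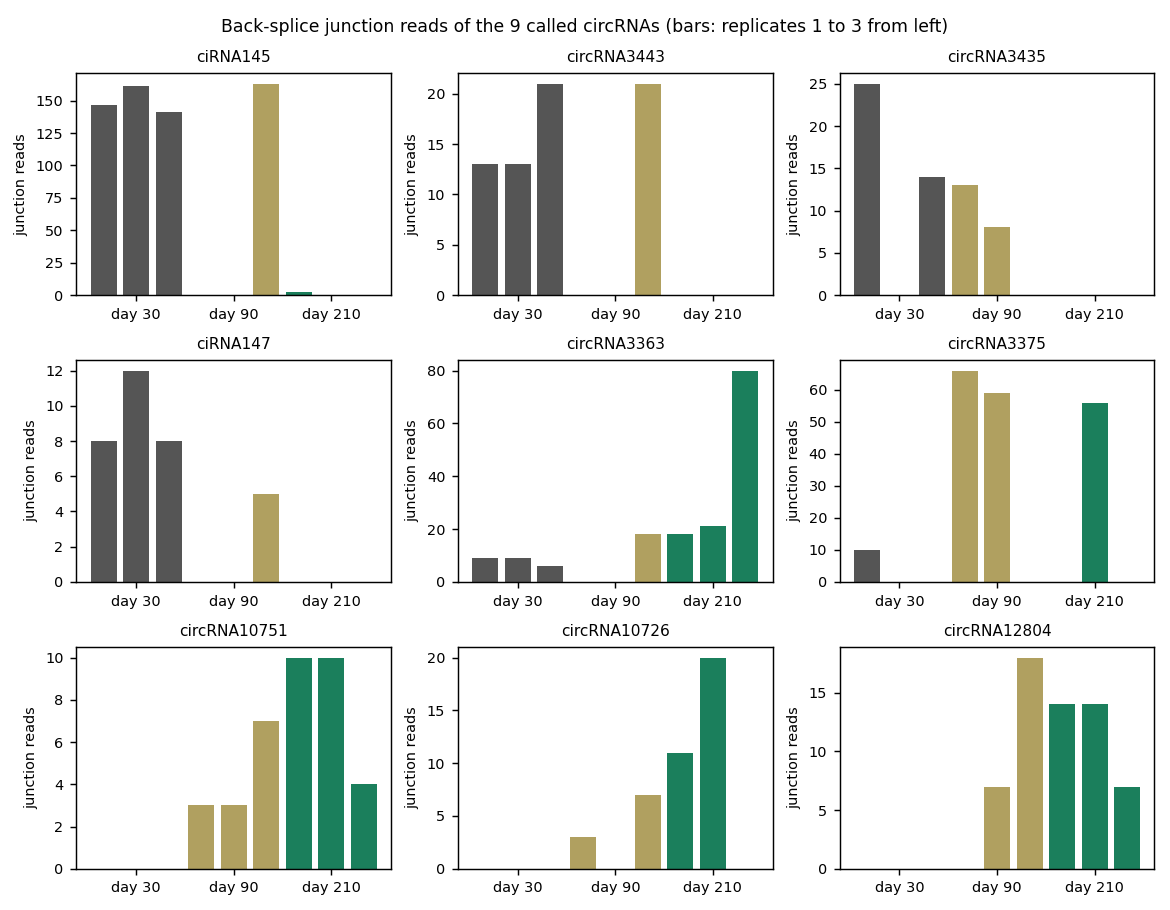
The plot of circRNAs shows junction reads in each of the 9 libraries, one panel for each of the 9 circRNAs that passed. CiRNA145 has 141 to 161 reads in the 3 day 30 libraries and 163 in day 90 replicate 3, and no more than 2 in any of the other 5.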

How the data were processed

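Total RNA of whole spleen was sequenced in 9 libraries, 3 for each of postnatal days 30, 90 and 210. Per the labels, total RNA went through oligo-dT beads and the poly(A)- or poly(A)+ fraction was fragmented for paired-end sequencing, so the fraction that was read is not certain; the labels also speak of an adipose type and name 2 sequencers. Per the submitters' processing notes HISAT2 2.0, StringTie 1.3.0 and Bowtie 0.12.2 were used, and the build named there is mm8, a mouse build; the assembly behind the pig coordinates printed here, the counter, the circRNA caller and any strand setting are likewise not given in the sources used here. The deposited gene table holds read counts per StringTie locus, and FPKM values that the authors scaled to transcript length and library size. The deposited circRNA table holds back-splice junction read counts and, per the file headers, a signal scaled to mapped reads (SRPBM), which was not tested.

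Loci whose FPKM averaged 1 or more over the 9 libraries were tested on counts with edgeR 4.0.16 (R 4.3.3), with TMM scaling, 1 mean per age and the quasi-likelihood test of day 210 against day 30, Benjamini-Hochberg adjusted over all 19264 loci, with a threshold of 0.05. CircRNAs with reads in at least 4 libraries were tested likewise on counts. Standard errors are the log2 difference divided by the square root of F. The code was tested on simulated data. Same-numbered libraries of days 30 and 210 did not deviate together (correlations of -0.02, -0.07 and -0.05). Within day 30 and within day 210 no 2 libraries agreed within sampling noise. Day 90 libraries were not part of these checks. Floors and intervals for junction reads use 3 counts and 95% exact limits.

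Families were matched by patterns on the descriptions and trimmed of wrong matches after names and values were seen, and 2 intended groups (Hedgehog pathway, sex chromosome genes) were not formed. The named loci of 1 further group, and 1 homeobox locus, are not reported here. Named loci are the 15 largest changes each way, the 4 smallest p in each family and members counted where 5 or fewer, described members of runs, 2 rising and 2 falling undescribed loci, and the leading circRNAs; further members were chosen after their values were seen. Members, families and cell markers were all chosen with earlier results of these data known. Alternatives tried were DESeq2 1.42.0, limma 3.58.1 on log2(FPKM + 1) and log2(FPKM + 0.1), DESeq2 size factors, other minimum levels, a fit of days 30 and 210 alone, a replicate block and each library left out.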

Additional observations from a re-analysis of the deposited data

How the results depend on the processing

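The count of 1203 changed loci moved with the test and the libraries: DESeq2 gave 2300, limma on log2(FPKM + 0.1) 770, a minimum of 5 FPKM 494, and a fit of days 30 and 210 alone, with fewer samples to estimate the spread, 499. With 1 library left out the count ranged from 342 (without day 30 replicate 2) to 1053. For circRNAs the 9 calls became 0 with DESeq2 and 6 to 10 with 1 library left out. With reads required in 6 libraries 0 passed, but that setting removed most of the 9 before the test. Apart from the smaller sets of samples and loci, the cause of these moves was not tested. Family medians of at least 0.2 in size reversed only at a minimum of 5 FPKM, as given above. Smaller medians also changed sign elsewhere, among them 7 of 64 without day 210 replicate 3 and 5 of 64 with each limma setting. None of the 301 named loci that were called reversed in any of these settings. Of these 301, DESeq2 kept 301, DESeq2 size factors in edgeR 298, limma on log2(FPKM + 1) 232 and limma on log2(FPKM + 0.1) 215, and each library left out kept between 92 and 231. The 3 libraries of each age limit what can be called.

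The labels do not say whether replicate numbers pair the libraries, and same-numbered libraries of days 30 and 210 did not deviate together. With the number as a replicate block 531 loci and 7 circRNAs passed, and 138 of the 301 named calls were kept.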
